A study of Homo sapiens with 6 samples.

Results

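The genes examined here encode RNA polymerase I (Pol I), its initiation factors, and proteins that process ribosomal RNA (rRNA) and assemble ribosomal subunits in the nucleolus. They were chosen by name as 53 gene symbols, and all 53 were found among the 29483 genes of the expression table by Ensembl identifier. RNA was sequenced in 6 libraries of HK-2 cells, a cell line established from the proximal tubule epithelium of a human kidney. All cells, those of the control group included, were kept in 25 mM high glucose (HG) medium for 7 days. The case group (n = 3) was then given 10 μM TEPP-46, a small molecule activator of the glycolytic enzyme PKM2, for 1 day, and the control group (n = 3) was not. The whole reads recovered from the values summed to 18585581, 17876293, and 17332482 in control replicates 1, 2, and 3, and to 16669410, 16006252, and 15323669 in case replicates 1, 2, and 3. As a single line under one glucose concentration, the cells offer no other glucose level for comparison. Epithelial keratins were abundant, with a mean FPKM of 346 for *KRT19* and 190.0 for *KRT18*. In contrast, 9 markers of the proximal tubule, among them *LRP2*, *CUBN*, and *AQP1*, were at or below 0.206 FPKM in every library. Markers of fibroblasts, endothelial cells, and leukocytes were near 0 in both groups, and the most abundant, *COL1A1*, had a mean FPKM of 0.245.

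Ribosomes are built mainly in the nucleolus. Pol I transcribes repeated genes into a long precursor, the 45S or 47S rRNA, which holds the 18S, 5.8S, and 28S rRNAs, while RNA polymerase III (Pol III) makes 5S rRNA. Small nucleolar RNAs (snoRNAs) in box C/D and box H/ACA particles guide the modification of the precursor, and large sets of assembly factors cut it, fold it, and add ribosomal proteins to form the 40S and 60S subunits. This is one of the largest uses of nucleotides and energy in a growing cell, and it is known to respond to the transcription factor MYC, to mTOR signaling, and to nutrients.

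Most of the ribosome biogenesis genes did not pass the test for differential expression after TEPP-46 treatment, and those that did went in both directions. Of the 53 members, 7 were upregulated and 5 were downregulated differentially expressed (DE) genes, defined by an adjusted p of at most 0.05 in limma. The upregulated members were *LTV1*, *NOP58*, *NOP16*, *NOP10*, *WDR12*, *NOP56*, and *GNL2*, with log2 fold changes (case minus control) from 0.32 to 0.59. The downregulated members were *POLR1A*, *TSR1*, *HEATR1*, *UTP20*, and *GNL3L*, with log2 fold changes from -0.66 to -0.36. Among all 13599 genes tested, 7.34% were upregulated and 5.84% were downregulated (13.2% in either direction), against 13.2% and 9.43% of the members. The difference between these shares was not tested. All 53 members passed the filter of a mean FPKM of at least 0.5, where FPKM is a gene's reads divided by its exon length and by the library's reads. Their mean FPKM ran from 3.80 to 383, on 176 to 20711 reads per library. In bulk RNA, a change in expression per cell and a change in the share of cells that express a gene cannot be told apart.

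**Figure D1:**
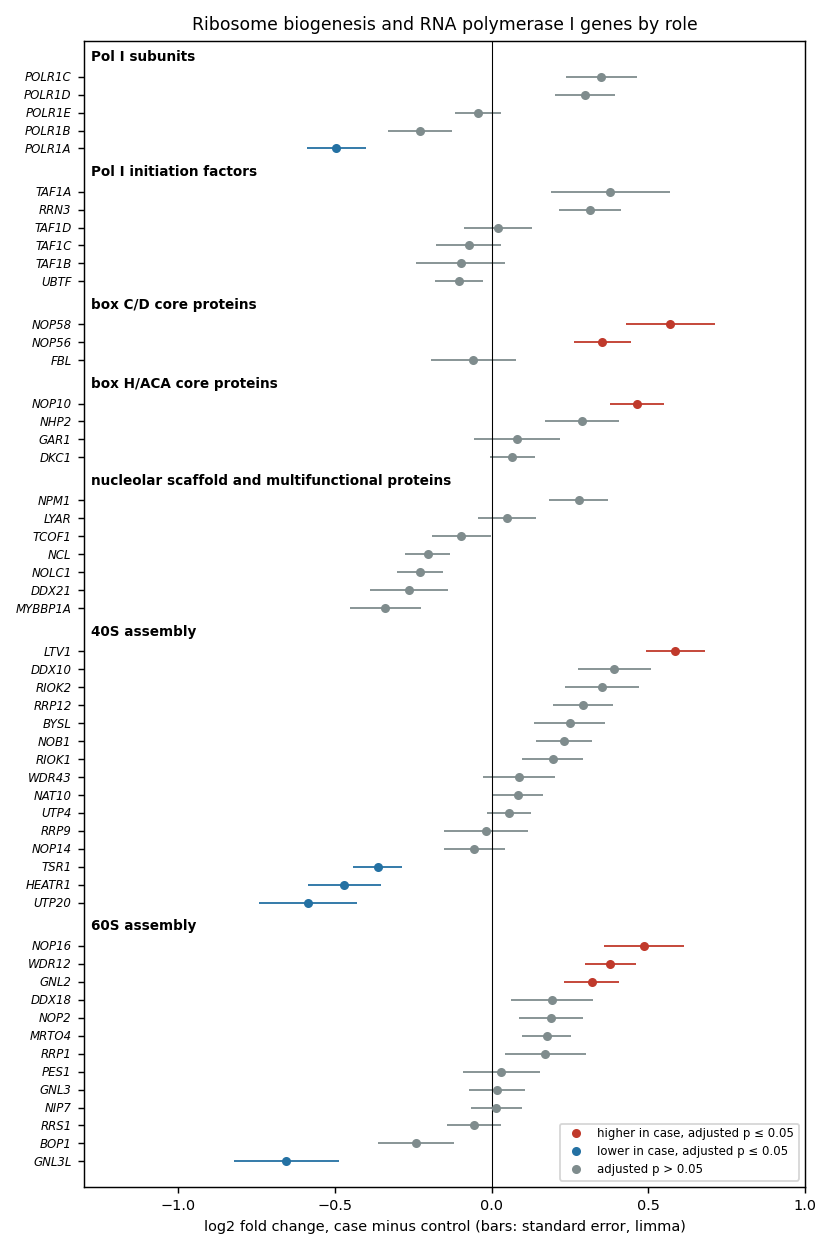
Log2 fold change (case minus control, x axis) of the 53 genes, grouped by role, with the standard error (SE) from limma as bars. Red points are upregulated and blue points downregulated DE genes. The 7 red points lie between 0.32 and 0.59, the 5 blue points lie between -0.66 and -0.36, and no Pol I initiation factor and no scaffold protein is coloured.

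The median log2 fold change of the members was 0.07, against -0.00167 for all tested genes. With FPKM as deposited it was -0.01 against -0.08 for all tested genes, with TPM -0.13 against -0.19, and with quantile normalization -0.02 against -0.00366. The members therefore lay 0.07, 0.07, and 0.06 above all tested genes with the main scaling, FPKM as deposited, and TPM, and the difference was -0.015 with quantile normalization. The log2 fold change was positive in 33 members and negative in 20. Without regard to the threshold, the scaled case and control values were without overlap in 27 members (50.9%), 18 with case above control and 9 with case below, and in 39.9% of all tested genes (19.5% above and 20.4% below). An unadjusted p under 0.05 was found for 16 higher and 8 lower members (30.2% and 15.1%), against 16.8% and 16.2% of all tested genes. Tested as whole reads by voom, 12 members were upregulated and 6 downregulated (9.75% and 10.9% of all tested genes). Leaving out control replicate 1, 2, or 3, or case replicate 3, left limma with 0 called members in either direction, where 0.771%, 0.507%, 0.640%, and 1.41% of all genes tested were called. An unadjusted p under 0.05 was then found for 14, 13, 11, and 14 higher members (26.4%, 24.5%, 20.8%, and 26.4% of the members). It was found for 7, 6, 6, and 7 lower members (13.2%, 11.3%, 11.3%, and 13.2%). Among all genes tested in these fits, 12.6%, 11.8%, 12.8%, and 12.8% were higher and 11.01%, 10.5%, 11.7%, and 12.1% were lower at this p. Over the 6 fits without 1 library each, the log2 fold change ran from 0.52 to 0.64 for *LTV1*, from 0.43 to 0.54 for *NOP10*, and from -0.56 to -0.45 for *POLR1A*. Wider ranges were found for *UTP20* (-0.74 to -0.41), *NOP58* (0.45 to 0.73), *GNL3L* (-0.86 to -0.53), and *HEATR1* (-0.59 to -0.40). Leaving out case replicate 1 gave 10 upregulated and 5 downregulated members (16.8% of all genes called), and leaving out case replicate 2 gave 10 and 8 (25.7%). The balance of directions depended on the scaling between libraries. With FPKM as deposited, 2 members were upregulated and 8 were downregulated (4.87% and 8.27% of all tested genes), and with every library rescaled to the same sum (TPM), 1 was upregulated and 13 were downregulated (2.82% and 17.6%). Under quantile normalization the members had 5 upregulated and 9 downregulated DE genes (6.42% and 6.58% of all tested genes). None of the 12 DE genes changed direction under these scalings.

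Of the 5 subunits of Pol I, 0 were upregulated and 1 was downregulated (7.34% and 5.84% of all tested genes). *POLR1A* (ENSG00000068654, chromosome 2 from 86020216 to 86106155 of GRCh38) encodes the largest, catalytic subunit. Its FPKM was 7.16, 7.02, and 6.67 in the control and 4.39, 5.23, and 4.37 in the case replicates. All case values lay below all control values, and the log2 fold change was -0.50 (SE 0.09, adjusted p = 0.0201 in limma). *POLR1B* (chromosome 2 from 112541915 to 112579818) encodes the second largest subunit, which forms the active site with *POLR1A*. Its FPKM was 8.11, 8.89, and 8.08 in the control and 6.04, 7.83, and 6.49 in the case replicates. These groups did not overlap either, but the log2 fold change of -0.23 (SE 0.10) did not pass the test (adjusted p = 0.158 in limma). With TPM both *POLR1A* (-0.69, adjusted p = 0.0120) and *POLR1B* (-0.43, adjusted p = 0.0495) were called lower. With the correction for gene length described below, *POLR1A* lost its call (-0.18, adjusted p = 0.225 in limma), as it did with annotated lengths (-0.25, adjusted p = 0.114).

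The smaller subunits had log2 fold changes above 0 or near it, and limma called none of them with the main scaling. *POLR1C* (chromosome 6 from 43509702 to 43562419) and *POLR1D* (chromosome 13 from 27620742 to 27744237) encode a pair of subunits that Pol I shares with Pol III. *POLR1C* had FPKM values of 9.71, 9.36, and 9.03 in the control and 10.4, 10.5, and 13.4 in the case group, and its log2 fold change was 0.35 (SE 0.11, adjusted p = 0.0767 in limma). For *POLR1D*, the FPKM was 5.82, 6.35, and 6.03 in the control and 6.54, 6.90, and 7.89 in the case group, with a log2 fold change of 0.30 (SE 0.10, adjusted p = 0.0757 in limma). In both genes every case replicate was above every control replicate, and neither passed the test with the main scaling. Limma voom called *POLR1D* (0.31, adjusted p = 0.0408) and not *POLR1C* (0.36, adjusted p = 0.0535). *POLR1E* (chromosome 9 from 37485948 to 37503697), a subunit that Pol III lacks, had FPKM values of 20.1, 20.5, and 20.6 in the control and 17.2, 20.3, and 19.0 in the case group. Its groups overlapped, and its log2 fold change was -0.04 (SE 0.07, adjusted p = 0.722 in limma).

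Of the 6 Pol I initiation factors, limma called none, 1 (*RRN3*) had an unadjusted p under 0.05, and the same 1 was called when whole reads were tested by limma voom (log2 fold change 0.32, adjusted p = 0.0429). Among all tested genes, limma called 7.34% higher and 5.84% lower, and 16.8% were higher and 16.2% lower at an unadjusted p under 0.05. *UBTF* (ENSG00000108312, chromosome 17 from 44205033 to 44221626) encodes the factor that binds along the rRNA genes and keeps them open. Its FPKM of 19.3, 19.2, and 19.0 in the control and 17.3, 16.9, and 16.5 in the case group did not overlap as deposited, but did so after scaling (log2 fold change -0.10, SE 0.08, adjusted p = 0.379 in limma). With TPM *UBTF* was called lower (-0.30, adjusted p = 0.0269), and *RRN3* was at 0.12 (adjusted p = 0.521). *RRN3* (ENSG00000085721, chromosome 16 from 15060033 to 15094311) encodes the factor that makes Pol I competent for initiation. It had FPKM values of 15.8, 16.7, and 14.8 in the control and 15.97, 21.01, and 19.1 in the case group. As deposited, case replicate 1 lay within the control range and the others lay above it, whereas after scaling all case values lay above the control values. The log2 fold change was 0.31 (SE 0.10, adjusted p = 0.0730 in limma). The 4 subunits of the promoter selectivity factor, *TAF1A*, *TAF1B*, *TAF1C*, and *TAF1D*, had log2 fold changes from -0.10 to 0.38. The highest, that of *TAF1A*, had an adjusted p of 0.203 by limma.

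The core proteins of box C/D snoRNA particles, which direct 2′-O-methylation of rRNA, included 2 upregulated DE genes among 3 members. Of all tested genes, 7.34% were upregulated. *NOP58* (ENSG00000055044, chromosome 2 from 202265736 to 202303661) had FPKM values of 27.6, 25.0, and 28.4 in the control and 29.3, 41.2, and 45.5 in the case replicates. Case replicate 1 was close to the control range, and the other 2 case replicates were well above it. The log2 fold change was 0.57 (SE 0.14, adjusted p = 0.0388 in limma). *NOP56*, its partner in the particle, had a log2 fold change of 0.35 (SE 0.09, adjusted p = 0.0425 in limma), from a mean FPKM of 28.7 ± 0.193 (SD, n = 3) to 34.8 ± 2.58 (SD, n = 3). *FBL* (ENSG00000105202, chromosome 19 from 39834458 to 39846379), which encodes the methyltransferase itself, had 149.8, 145.8, and 161 FPKM in the control and 165, 119, and 135 FPKM in the case group. Its case replicates lay on both sides of the control range (log2 fold change -0.06, SE 0.14, adjusted p = 0.800 in limma). With FPKM as deposited, TPM, or quantile normalization limma called 0 of the 3 genes, with adjusted p values of 0.0698, 0.124, and 0.0885 for *NOP58* and of 0.0517, 0.145, and 0.0517 for *NOP56*. At an unadjusted p under 0.05, 2, 1, and 2 of the 3 were higher and 0, 1, and 1 were lower, the last being *FBL* (-0.26 with TPM and -0.28 with quantile normalization), and voom called both *NOP58* and *NOP56*.

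Box H/ACA particles, which convert uridine to pseudouridine, have 4 core proteins among the members. Of these 4, 1 was upregulated (7.34% of all tested genes). *NOP10* (ENSG00000182117, chromosome 15 from 34339159 to 34343180) encodes a very small protein of this core and was the most highly expressed of the 53 members. Its FPKM was 346, 325, and 326 in the control and 437, 406, and 460.2 in the case replicates. The groups were clearly apart, and the log2 fold change was 0.46 (SE 0.09, adjusted p = 0.0195 in limma). The log2 fold changes of *NHP2*, *GAR1*, and of *DKC1*, the pseudouridine synthase, were 0.29, 0.08, and 0.07, and their groups overlapped. None of the 3 passed the test, and under TPM the values of *GAR1* and *DKC1* were below 0.

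The 7 scaffold and multifunctional proteins of the nucleolus had a median log2 fold change of -0.20, and limma called 0 of them. An unadjusted p under 0.05 was found for 1 higher and 3 lower genes of this group (16.8% and 16.2% of all tested genes). Voom called *NPM1* higher and *MYBBP1A* lower (9.75% and 10.9% of all tested genes). *NOLC1*, *NCL*, and *MYBBP1A* were called lower by limma with FPKM as deposited and with quantile normalization (3 genes), and with TPM *TCOF1* was called as well (4 genes). Of all tested genes, 8.27%, 6.58%, and 17.6% were called lower with FPKM as deposited, quantile normalization, and TPM. *NPM1* (ENSG00000181163, chromosome 5 from 171387116 to 171411810), an abundant histone chaperone and scaffold of the granular layer, was the most highly expressed. Its FPKM of 282, 281, and 258 in the control and 277, 319, and 352 in the case group overlapped as deposited (log2 fold change 0.28, SE 0.09, adjusted p = 0.0860 in limma). *NPM1* has processed pseudogenes that could take up some of its reads. *NOLC1* (ENSG00000166197, chromosome 10 from 102152176 to 102163871), which binds snoRNA particles and Pol I, had the lowest p of the group. It had 92.8, 98.5, and 98.2 FPKM in the control and 72.6, 85.1, and 77.2 FPKM in the case replicates, with every case value below the control range and a log2 fold change of -0.23 (SE 0.07, adjusted p = 0.0750 in limma). *MYBBP1A*, *DDX21*, *NCL*, and *TCOF1* had negative log2 fold changes, from -0.34 for *MYBBP1A* to -0.10 for *TCOF1*, and did not pass the limma test with the main scaling.

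Factors of 40S assembly made up 15 members, of which 1 was upregulated and 3 were downregulated (7.34% and 5.84% of all tested genes). The counts were 1 and 3 with FPKM as deposited (4.87% and 8.27% of all tested genes). They were 0 and 3 with TPM (2.82% and 17.6%) and 2 and 3 with quantile normalization (6.42% and 6.58%). With the correction for gene length described below they were 2 and 1 (6.99% and 4.20%). *LTV1* (ENSG00000135521, chromosome 6 from 143843338 to 143863812), an assembly factor that must leave the maturing 40S subunit in its last steps, had the lowest p of all members. On 176 to 271 reads per library, its FPKM was 5.49, 5.89, and 5.48 in the control and 7.22, 9.14, and 7.89 in the case replicates. Every case replicate was above every control replicate, and the log2 fold change was 0.59 (SE 0.09, adjusted p = 0.0143 in limma). The call of *LTV1* was lost with TPM (0.39, adjusted p = 0.0533 in limma) and with the correction for gene length (0.44, adjusted p = 0.0542). It was kept with FPKM as deposited (adjusted p = 0.0252) and with quantile normalization (adjusted p = 0.0124). *BYSL* (ENSG00000112578, chromosome 6 from 41921499 to 41933046), a factor of the nuclear 40S precursor, was the most highly expressed member of the group. Its FPKM was 52.7, 53.6, and 55.1 in the control and 70.1, 56.3, and 56.5 in the case group. Case replicate 1 stood far above the other 5 libraries, and the log2 fold change of 0.25 (SE 0.11) did not pass the test (adjusted p = 0.169 in limma).

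The downregulated 40S genes were *UTP20*, *HEATR1*, and *TSR1*. *UTP20* and *HEATR1* encode very large proteins of the small subunit processome, the particle that first folds around the 18S part of the precursor. The log2 fold change of *UTP20* was -0.59 (SE 0.16, adjusted p = 0.0460 in limma), with FPKM values of 8.30, 8.60, and 7.96 in the control and 3.91, 6.64, and 5.39 in the case group. *HEATR1*, which is also linked to Pol I transcription, had a log2 fold change of -0.47 (SE 0.12, adjusted p = 0.0387 in limma), with 8.30, 9.02, and 8.30 FPKM in the control and 5.22, 7.09, and 5.31 FPKM in the case group. In both genes all case values were below the control values. Neither was called with the correction for gene length (adjusted p = 0.0751 for *UTP20* and 0.0803 for *HEATR1* in limma). With the correction for both length and GC content *UTP20* was called (adjusted p = 0.0203) and *HEATR1* was not (adjusted p = 0.0639). *TSR1*, a late factor that sits on the 40S precursor in the cytoplasm, had 22.5, 23.7, and 23.5 FPKM in the control and 16.6, 18.6, and 16.2 FPKM in the case group (log2 fold change -0.36, SE 0.08, adjusted p = 0.0256 in limma). Case replicate 2 was the case library nearest to the controls for each of these 3 genes. The other 10 members of this group that are not named above had log2 fold changes from -0.06 for *NOP14* to 0.39 for *DDX10*, an RNA helicase, whose adjusted p was 0.0586 by limma and 0.0237 by voom. The kinases *RIOK1* and *RIOK2* and the nuclease *NOB1*, which cuts the end of 18S rRNA, had log2 fold changes of 0.19, 0.35, and 0.23 and did not pass the test.

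Among the 13 factors of 60S assembly, 3 were upregulated and 1 was downregulated (7.34% and 5.84% of all tested genes). The counts were 0 and 1 with FPKM as deposited (4.87% and 8.27% of all tested genes). They were 0 and 3 with TPM (2.82% and 17.6%) and 2 and 2 with quantile normalization (6.42% and 6.58%). The median log2 fold change of these factors was 0.17, and -0.03 with TPM. *WDR12* (ENSG00000138442, chromosome 2 from 202874261 to 203014798) belongs to the PeBoW complex with *PES1* and *BOP1*. Its FPKM was 5.77, 6.10, and 6.11 in the control and 6.94, 7.92, and 7.40 in the case replicates, without overlap (log2 fold change 0.38, SE 0.08, adjusted p = 0.0259 in limma). *BOP1* (ENSG00000261236, chromosome 8 from 144262045 to 144291438) was the most highly expressed member of the group. It had 57.5, 51.6, and 57.6 FPKM in the control and 51.8, 42.0, and 40.7 FPKM in the case group, with case replicate 1 inside the control range (log2 fold change -0.24, SE 0.12, adjusted p = 0.206 in limma). *PES1* had a log2 fold change of 0.03, and neither *BOP1* nor *PES1* passed the test with the main scaling. *BOP1* was called lower with TPM (-0.44, adjusted p = 0.0226 in limma) and with quantile normalization (-0.36, adjusted p = 0.0425).

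*NOP16* and *GNL2*, a nucleolar GTPase of late 60S steps, were the other upregulated genes of this group. *NOP16* had 6.41, 8.01, and 7.38 FPKM in the control and 9.47, 8.60, and 11.03 FPKM in the case group (log2 fold change 0.49, SE 0.13, adjusted p = 0.0441 in limma). For *GNL2* the FPKM was 8.61, 8.29, and 8.56 in the control and 9.16, 10.1, and 11.02 in the case group (log2 fold change 0.32, SE 0.09, adjusted p = 0.0494 in limma). Neither gene had overlapping groups. *GNL3L*, a GTPase related to nucleostemin, was the downregulated gene, with 11.3, 12.1, and 10.4 FPKM in the control and 5.85, 9.17, and 5.63 FPKM in the case group. Case replicates 1 and 3 were far below the controls and case replicate 2 was nearer to them (log2 fold change -0.66, SE 0.17, adjusted p = 0.0417 in limma). Its relative *GNL3*, nucleostemin, had a log2 fold change of 0.02 and did not pass the test.

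**Figure D2:**
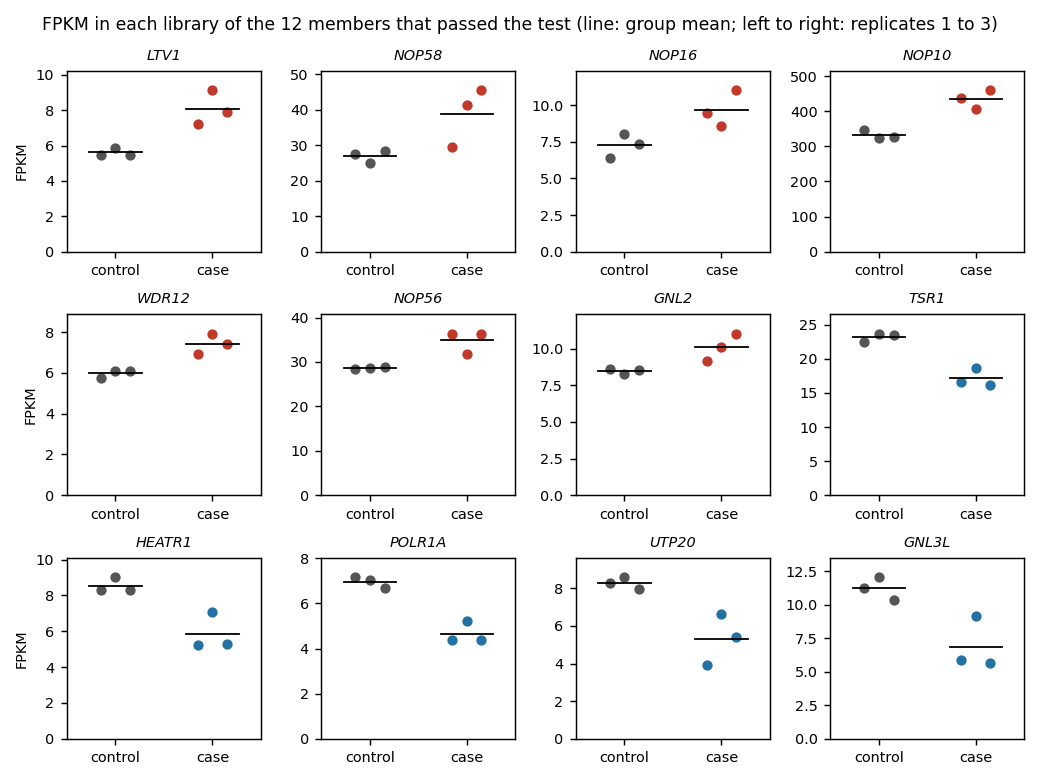
FPKM (y axis, from 0) of the 12 members that passed the test, with 1 point per library and the group mean as a line. Points from left to right within a group are replicates 1 to 3, and no case point overlaps the control points of its gene. Case replicate 2 is the case point nearest to the controls in *POLR1A*, *TSR1*, *HEATR1*, *UTP20*, and *GNL3L*.

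Of the 5 downregulated members, 3 were long genes. *POLR1A*, *UTP20*, and *HEATR1* have 13519, 10024, and 9049 bases of exon behind their FPKM values, whereas *NOP10* has 554 and *LTV1* has 1847 (1576 in the annotation used here for *NOP10*). The other upregulated members, *WDR12*, *GNL2*, *NOP56*, *NOP58*, and *NOP16*, have 9098, 5745, 5398, 3299, and 2862 bases. The other downregulated members, *TSR1* and *GNL3L*, have 5545 and 2589. Across the 53 members, the correlation of log2 fold change with log2 exon length was -0.31 by Pearson's r and -0.24 by Spearman's rho, and across all 13599 tested genes it was -0.28 and -0.36. These points share the same 6 libraries. When all tested genes were split into 5 length bins, the longest, of at least 7481 bases, had a median log2 fold change of -0.21, and it was -0.32, -0.08, and -0.22 in case replicates 1, 2, and 3 relative to the control mean. In the shortest bin, of at most 1982 bases, the median was 0.15. Of all genes in the longest bin, 13.6% were downregulated and 1.99% were upregulated, and of its 10 members 3 were downregulated and 1, *WDR12*, was upregulated. The median of these 10 members was 0.11.

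When each library was corrected for this trend with gene length, 7 members were upregulated and 2 were downregulated (6.99% and 4.20% of all tested genes). *POLR1A* was no longer called (log2 fold change -0.18, adjusted p = 0.225 in limma), nor were *HEATR1* (-0.28, adjusted p = 0.0803) and *UTP20* (-0.36, adjusted p = 0.0751). *LTV1*, *NOP58*, and *NOP16* also lost the call, with log2 fold changes of 0.44, 0.50, and 0.38 and adjusted p values of 0.0542, 0.0680, and 0.0729. When the libraries were corrected for both length and GC content, an alternative chosen after seeing the data, *LTV1* (0.44, adjusted p = 0.0214 in limma), *NOP58* (0.51, adjusted p = 0.0188), and *UTP20* (-0.37, adjusted p = 0.0203) were called, and *POLR1A*, *HEATR1*, and *NOP16* were not (adjusted p = 0.105, 0.0639, and 0.0518). Still called by limma were *NOP10*, *WDR12*, *NOP56*, *GNL2*, *TSR1*, and *GNL3L*. The length of *GNL3L* is uncertain, at 2589 bases implied by its FPKM and 11949 annotated, and with annotated lengths, tried after seeing the data, its call was lost (log2 fold change -0.46, adjusted p = 0.0656 in limma) and *TSR1* was the 1 downregulated member, beside 7 that were upregulated (4.53% and 6.81% of all tested genes). *POLR1D*, *DDX10*, and *RRP12* were called only with the correction among these 2 fits, with adjusted p values of 0.0245, 0.0231, and 0.04496. With annotated lengths (18059 in place of 8461 bases for *DDX10*), *POLR1D*, *DDX10*, and *NPM1* were called higher and *RRP12* was not (adjusted p = 0.0274, 0.0183, 0.0264, and 0.0503 in limma).

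**Figure D3:**
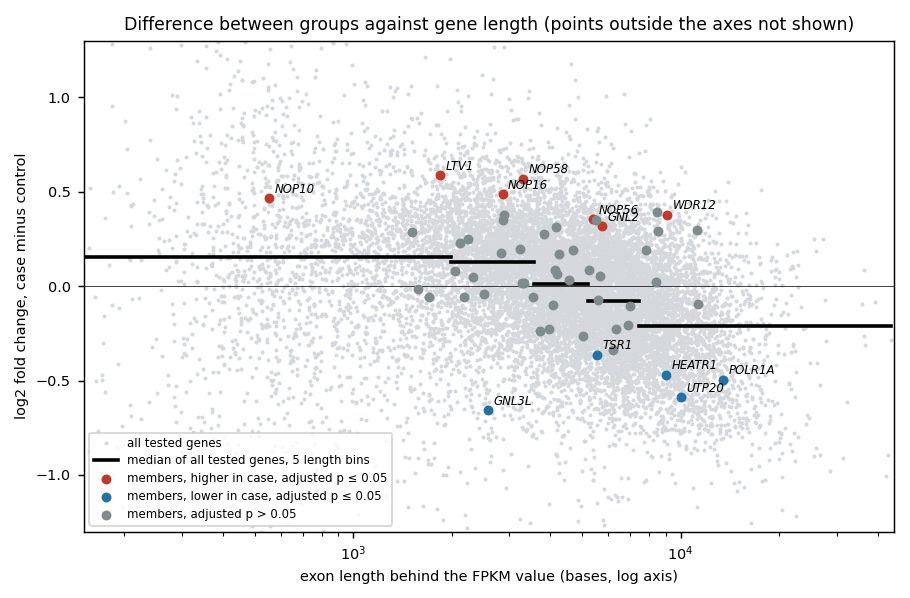
Log2 fold change (case minus control, y axis) against exon length in bases (log x axis). Grey points are all tested genes, black lines are the medians of 5 length bins, and coloured points are the members. The black lines go from 0.15 in the shortest bin to -0.21 in the longest, with *NOP10* at 554 bases on the left and *POLR1A* at 13519 bases on the right.

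Promoter sequences of 45 of the 53 members were matched by symbol in RefSeq (GRCh38.p14), and the 250 bases before each gene's start were searched on both strands. The E-box CACGTG, the letters to which MYC is known to bind, was found in 4 members (8.89%), namely *NAT10*, *UTP20*, *UTP4*, and *NOP10*, against 6.34% of all 35116 promoters and 8.38% of the 14072 promoters of tested genes. The letters CCGGAAG or their reverse complement CTTCCGG, a core bound by ETS family factors, were found in 14 members (31.1%), against 8.52% of all promoters and 14.7% of those of tested genes. The ETS letters were chosen after the sequences had been seen. Promoters were matched for 6 of the 7 upregulated members, all 5 downregulated members, and 34 members that were not called. The ETS letters were found in 3, 1, and 10 of these, and the E-box in 1, 1, and 2. Among the members that were not called, these were 29.4% and 5.88%. The last 120 bases before the start are given for 5 DE members that hold one of the motifs, the motif in capitals, 3 that were upregulated (*NOP10*, *LTV1*, *NOP16*) and 2 that were downregulated (*UTP20*, *TSR1*). They lie at chr15:34343137-34343256 on the minus strand for *NOP10*, chr6:143843218-143843337 on the plus strand for *LTV1*, chr5:176388599-176388718 on the minus strand for *NOP16*, chr12:101279985-101280104 on the plus strand for *UTP20*, and chr17:2336458-2336577 on the minus strand for *TSR1*. The RefSeq starts used are not the gene bounds given above in every case, and for *NOP10*, *NOP16*, and *TSR1* these stretches lie partly or wholly within the annotated gene.
NOP10: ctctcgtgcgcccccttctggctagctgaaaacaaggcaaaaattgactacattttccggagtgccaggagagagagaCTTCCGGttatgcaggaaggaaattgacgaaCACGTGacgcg
LTV1: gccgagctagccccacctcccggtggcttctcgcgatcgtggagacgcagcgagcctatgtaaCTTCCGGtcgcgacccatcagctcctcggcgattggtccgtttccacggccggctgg
NOP16: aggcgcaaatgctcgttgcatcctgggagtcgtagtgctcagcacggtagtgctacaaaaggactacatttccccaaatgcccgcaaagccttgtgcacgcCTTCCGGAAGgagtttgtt
UTP20: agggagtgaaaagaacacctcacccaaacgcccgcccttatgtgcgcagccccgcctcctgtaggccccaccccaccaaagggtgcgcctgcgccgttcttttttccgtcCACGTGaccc
TSR1: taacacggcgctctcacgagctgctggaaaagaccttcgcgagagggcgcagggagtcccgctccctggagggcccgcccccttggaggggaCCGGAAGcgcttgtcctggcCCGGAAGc
*NOP10* has 2 E-boxes, of which the one at position -170 lies outside the bases shown. The other and the E-box of *UTP20* begin at positions -11 and -10 from the start, and the former gene was upregulated and the latter downregulated. *TSR1* has 2 ETS cores, and in *NOP16* the motif and its reverse complement overlap. A match in these letters is a description and not a bound site.

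Some members carry snoRNA genes inside their introns, so that their transcription also yields guide RNAs. The annotation placed snoRNA genes on the same strand within 8 members, with 8 in *TAF1D*, 6 in *GNL3*, 5 in *NOP56*, 4 in *NOP58*, 3 each in *NCL* and *WDR43*, and 2 each in *DKC1* and *TSR1*. Of these 8, *NOP56* and *NOP58* were upregulated and *TSR1* was downregulated, and their median log2 fold change was 0.04 (-0.03 with FPKM as deposited and -0.15 with TPM), against 0.08 for the 45 members without such genes (0.00428 and -0.12). With FPKM as deposited, TPM, and quantile normalization, 0 of the 8 were upregulated and 2, *NCL* and *TSR1*, were downregulated. Of all tested genes, 7.34% were upregulated and 5.84% were downregulated with the main scaling. With FPKM as deposited, TPM, and quantile normalization, 4.87%, 2.82%, and 6.42% of all tested genes were upregulated and 8.27%, 17.6%, and 6.58% downregulated.

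The other genes of the pathway were followed with a list of 123 further factors, of which 118 were tested. Limma called 9 of them upregulated and 4 downregulated (7.63% and 3.39%, against 7.34% and 5.84% of all tested genes), and their median log2 fold change was 0.07, or -0.13 with TPM. These counts were 5 and 8 with FPKM as deposited (4.87% and 8.27% of all tested genes) and 1 and 18 with TPM (2.82% and 17.6%). They were 0 and 0 without any 1 control replicate and without case replicate 3. The 5 upregulated genes with the lowest p were *MAK16*, a 60S factor (0.54, SE 0.09), *EXOSC8* (0.49, SE 0.09), *EXOSC1* (0.57, SE 0.12), and *EXOSC3* (0.37, SE 0.09), which encode parts of the RNA exosome, and *POLR1H*, a small subunit of Pol I (0.67, SE 0.15). The FPKM of *POLR1H* was 2.46, 2.46, and 1.91 in the control and 3.52, 3.11, and 3.83 in the case group, without overlap (adjusted p = 0.0263 in limma). Of 14 genes of the RNA exosome, which trims the 3′ end of the 5.8S precursor, 4 were upregulated, *EXOSC9* among them (0.37, SE 0.09), and 0 were downregulated in limma or voom, nor was any lower at an unadjusted p under 0.05 (0 genes). With TPM 1 gene of the whole list of 118 was upregulated, so that at most 1 of these 4 calls was kept. The 4 downregulated genes were *BAZ2A*, *MDN1*, *NOP9*, and *RRP1B*, of which the last 2 had log2 fold changes of -0.85 and -0.34. *BAZ2A*, a subunit of a complex that silences rRNA genes, had 15.7, 16.7, and 14.8 FPKM in the control and 8.75, 11.5, and 8.36 FPKM in the case group (log2 fold change -0.65, SE 0.12, adjusted p = 0.0182 in limma). *MDN1*, a giant ATPase of 60S assembly with 18602 bases of exon, had a log2 fold change of -0.92 (SE 0.20, adjusted p = 0.0259 in limma). Both kept their calls with the correction for gene length, with adjusted p values of 0.0360 and 0.0480.

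Set beside the products that these factors handle, the members (median 0.07) had a lower median log2 fold change than the cytosolic ribosomal protein genes, at 0.33 over 77 tested genes (0.13 with TPM and 0.05 with quantile normalization), and 21 subunits and factors of Pol III had a median of 0.05, or -0.15 with TPM. The difference between these lists was not tested. Set against the mean of the controls, the members had a median of 0.09, 0.04, and 0.12 in case replicates 1, 2, and 3, and the ribosomal protein genes had 0.48, 0.09, and 0.38. Case replicate 2 was the lowest of the 3 in both lists. In the Pol III list, *POLR3C* was upregulated (log2 fold change 0.29, SE 0.08, adjusted p = 0.0492 in limma) and *POLR3G* was downregulated (-0.45, SE 0.09, adjusted p = 0.0212). The call of *POLR3C* was lost with FPKM as deposited (0.21, adjusted p = 0.101 in limma), TPM (0.09, adjusted p = 0.461), quantile normalization (0.18, adjusted p = 0.167), the replicate block (adjusted p = 0.0767), and the correction for gene length (0.18, adjusted p = 0.163), though not with annotated lengths (0.49, adjusted p = 0.0183).

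**Figure D4:**
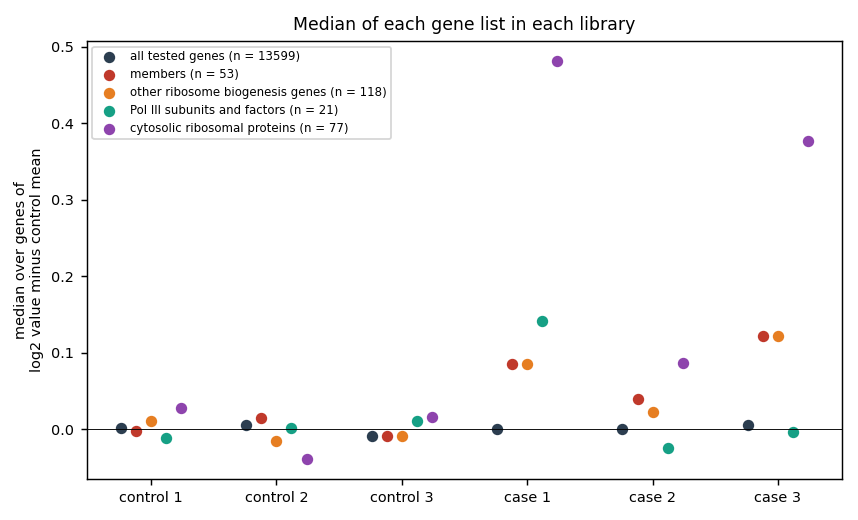
Median over the genes of each list of the scaled log2 value minus the mean of the control group (y axis) in each of the 6 libraries. The members (red) lie at 0.09, 0.04, and 0.12 in case replicates 1, 2, and 3, below the ribosomal protein genes (purple) at 0.48, 0.09, and 0.38. With TPM in place of this scaling the median log2 fold change of the members was -0.13, against -0.19 for all tested genes.

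Among known regulators of rRNA synthesis, *MYC* was upregulated and *MTOR* and *RPTOR* were downregulated. The FPKM of *MYC* was 52.7, 48.9, and 53.2 in the control and 72.8, 63.3, and 65.3 in the case replicates (log2 fold change 0.45, SE 0.10, adjusted p = 0.0245 in limma), and the groups were well apart. *MTOR*, the kinase that couples nutrients to ribosome production, had 9.39, 9.93, and 9.12 FPKM in the control and 5.81, 7.11, and 5.39 FPKM in the case group (log2 fold change -0.56, SE 0.11, adjusted p = 0.0204 in limma). *RPTOR*, its partner in mTORC1, had a log2 fold change of -0.48 (SE 0.11, adjusted p = 0.0312 in limma). Both are long genes, and neither was called with the correction for gene length (adjusted p = 0.0988 and 0.156 in limma). With the correction for both length and GC content *MTOR* was called (-0.28, adjusted p = 0.0429) and *RPTOR* was not (-0.22, adjusted p = 0.0944). *RPL5* and *RPL11* encode ribosomal proteins that, with 5S rRNA, bind and restrain the p53 ligase MDM2 when assembly is disturbed. Their log2 fold changes were 0.42 (SE 0.09, adjusted p = 0.0266 in limma) and 0.70 (SE 0.09, adjusted p = 0.00937 in limma). The call of *RPL5* was lost with TPM (0.22, adjusted p = 0.0837) and with quantile normalization (0.18, adjusted p = 0.164), and that of *RPL11* was not. *MDM2* itself had overlapping groups and a log2 fold change of -0.24 (SE 0.19, adjusted p = 0.421 in limma).

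The rRNA genes were represented by 12 rows of the table on chromosome 21, 10 that overlap a 45S repeat and 2 that overlap separate copies of its 18S and 5.8S parts annotated as pseudogenes, of which 9 were tested and 4 were upregulated. The most abundant, ENSG00000281181 (from 8437629 to 8438551), is annotated as a long noncoding RNA on the strand opposite to the 18S rRNA of the repeat *RNA45SN1*. Its FPKM was 65.9, 53.3, and 148 in the control and 385, 859, and 1343 in the case replicates. Every case value exceeded the highest control value, and the replicates differed widely within each group (log2 fold change 3.32, SE 0.48, adjusted p = 0.0116 in limma). A row in the same place of another repeat, ENSG00000280614, had a log2 fold change of 6.06 (SE 1.19, adjusted p = 0.0214 in limma). *RNA5-8SN1* and *RNA5-8SN3*, copies of the 5.8S rRNA gene, had FPKM values of 2.104, 4.01, and 4.14 and of 0.701, 2.19, and 0 in the control group. In the case group they had 6.26, 22.8, and 27.2 FPKM and 7.04, 15.1, and 21.3 FPKM (log2 fold changes 2.31 and 4.598, SEs 0.50 and 0.98, adjusted p = 0.0268 and 0.0256 in limma). These were covered by at most 64 and 50 reads in any library. When each library was left out in turn, the log2 fold change ran from 2.92 to 3.79 for ENSG00000281181, from 4.97 to 7.29 for ENSG00000280614, from 1.92 to 2.94 for *RNA5-8SN1*, and from 3.36 to 5.59 for *RNA5-8SN3*. Limma called them in 3, 3, 2, and 4 of the 6 fits, and none of the 4 was called without control replicate 1 or without case replicate 3.

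The 4 called rows lie over the mature 18S or 5.8S parts, and so cannot tell the precursor from mature rRNA. Of the tested rows, ENSG00000277437 (from 8208844 to 8208904) is a short row before the 18S part of *RNA45SN2*, in the spacer that is removed from the precursor. On 0 to 4 reads per library it had a log2 fold change of 0.14 (SE 1.64, adjusted p = 0.962 in limma), so that a difference in the precursor was not detectable at this depth. It was 1 of the 5 tested rows that did not pass the test. ENSG00000281383 and ENSG00000280800, on the strand opposite to 18S copies, had log2 fold changes of 4.64 and 2.75 (SEs 1.54 and 0.98). Their adjusted p values were 0.0814 and 0.0969 in limma. Both were at 0.0648 FPKM in case replicate 1. In case replicates 2 and 3 they were at 5.87 and 23.9 FPKM and at 2.43 and 1.69 FPKM. In ENSG00000280441, case replicate 3 was at 21.7 FPKM and the other 5 libraries were at most 0.240 FPKM, and in the row named 5_8S_rRNA, which lies outside the repeats, case replicate 2 was at 12.2 FPKM and every control replicate was listed at 0. Copies of the repeat are nearly identical, so that reads could be shared between them, and the strandedness of the libraries is not given in the sources used here, so that reads from the opposite strands cannot be told apart. How much ribosomal RNA was removed before sequencing is also not given, and its part in these rows was not tested. As another kind of rRNA, the mitochondrial *MT-RNR1*, which neither Pol I nor the members make, had 1068, 995, and 1315 FPKM in the control and 1669, 1748, and 1958 FPKM in the case group (log2 fold change 0.75, SE 0.12, adjusted p = 0.0140 in limma). For *MT-RNR2* the log2 fold change was 0.34 (SE 0.10, adjusted p = 0.0535 in limma).

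**Figure D5:**
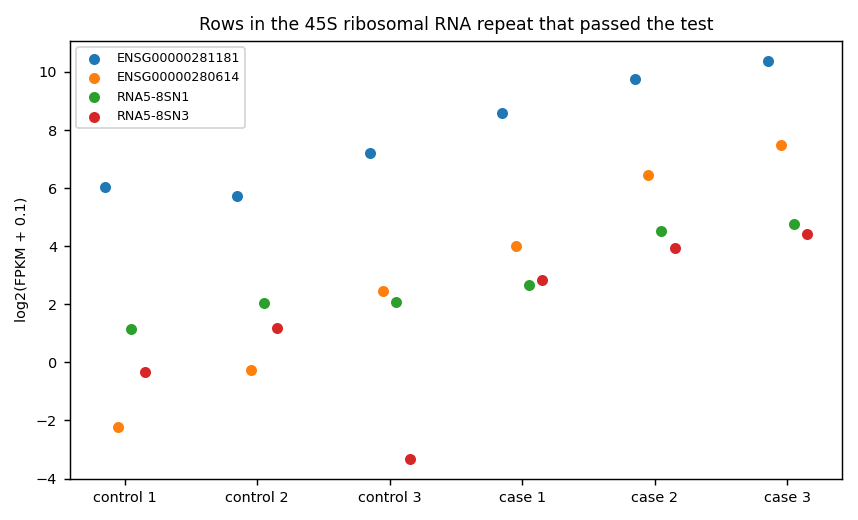
Log2(FPKM + 0.1) (y axis) of the 4 rows in the 45S repeat that passed the test, in each of the 6 libraries. All 4 rows are above their control values in every case replicate, with ENSG00000281181 from 385 to 1343 FPKM in the case group, and the point of *RNA5-8SN3* in control replicate 3 stands for a value of 0.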

How the data were processed

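The deposited values were FPKM of 29483 genes with 1 column per library. Per the labels and the methods of the study, the authors aligned reads to GRCh38.p13 with HISAT2 2.1.0, counted them with HTSeq 0.6.0, and converted them to FPKM. RNA selection and strandedness are not given in the sources used here. FPKM values were divided by a median-of-ratios factor (0.944 to 1.04), 0.1 was added, and log2 values of 13599 genes, those whose mean FPKM reached 0.5, were tested with limma 3.58.1 (R 4.3.3) with an intensity trend, P-values being adjusted by the Benjamini-Hochberg method over all of them. Printed FPKM values are unscaled. From the steps of the FPKM values, whole reads (within 0.01 of a whole number) were recovered for 27922 (100.0%) of the genes above 0. Of these, 1772 needed a further factor from the annotated exon length. The reads of some genes may still be off by a whole factor, which would alter read sums, lengths, and voom. The implied length differed by 1.5 times or more from the annotated exon length in 1569 of 13489 tested genes and in 7 of the 53 members, and a different annotation cannot be told apart from such a factor. Limma voom on these reads, which called 1326 genes higher and 1484 lower, was an alternative. Exon lengths are those implied by reads and FPKM, and positions come from a GRCh38 annotation.

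The members and all lists were chosen with earlier results of these data known. Named in full were all Pol I subunits, *UBTF*, *RRN3*, and in each of 7 roles the member with the lowest p and that with the highest mean FPKM. Every further DE member was named, as were *MYC*, *RPL5*, *RPL11*, *MDM2*, and, in the wider list, the 5 DE genes with the lowest p in each direction. Other genes were named after their values were seen. The replicates are described as independent, but separate cultures are not stated, so P-values measure the spread between these samples. An exact permutation test of 3 against 3 cannot give a p below 0.1 and was not used.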

Additional observations from a re-analysis of the deposited data

How the results depend on the processing

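All 12 DE members kept their calls with pseudocounts of 1 and 0.01, a mean FPKM of at least 1, robust estimation, voom, and GC correction. No called gene or row changed direction under any alternative run. For upregulated members (7), there were 2 with no filter on low values, 2 with unscaled FPKM, 1 with TPM, 3 without the intensity trend, 12 with voom, and 16 with GC correction, which like the joint gene length and GC correction (13) was chosen after seeing the data. For downregulated members (5), these were 2, 8, 13, and 1 with no filter, unscaled FPKM, TPM, and no trend, 9 with quantile normalization, 9 with GC correction, 2 with gene length correction, and 1 with annotated lengths, also chosen after seeing the data. Among all tested genes 1.18% and 0.684% were upregulated and downregulated with no filter, 3.21% and 3.06% without the trend, 14.3% and 9.96% with GC correction, and 13.4% and 7.35% with both corrections. For the other ribosome biogenesis genes (9 upregulated, 4 downregulated), there were 2 and 0 with no filter, 5 and 8 with unscaled FPKM, 1 and 18 with TPM, 2 and 2 without the trend, 10 and 7 with quantile normalization, 15 and 6 with voom, 24 and 7 with GC correction, and 19 and 5 with both corrections. With no filter, 27 of these were higher and 9 lower at an unadjusted p under 0.05 by limma. The median of the members minus that of all tested genes was 0.07, and -0.015 with quantile normalization. Leaving out 1 replicate each gave from 0 to 10 upregulated and from 0 to 8 downregulated members, and from 0 to 23 and from 0 to 8 among the other genes, with the lowest counts without any 1 control replicate or case replicate 3. The causes were not tested.

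The samples share only replicate numbers. Same-numbered samples had correlations of their deviations of 0.06, 0.10, and -0.05, and 1 number correlated best with itself, so they were not taken as pairs. With the replicate block there were 4 upregulated and 5 downregulated members and 7 and 4 among the other genes (6.24% and 5.60% of all tested genes). The replicate block with gene length correction gave 4 and 1, and 5 and 2 (4.46% and 2.71%). Precision is limited by 3 replicates per group, and the median SD between replicates on the log2 scale was 0.09 for the control and 0.19 for the case group. Counting error matters most for the rRNA rows, some of which had 0 reads in a library.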
